A study of Mus musculus with 6 samples.

Results

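The 9 genes described here encode the transcription factors that give the hepatocyte its identity: Hnf4a, Cebpa, Cebpb, Foxa1, Foxa2, Foxa3, Nr1h4, Nr5a2 and Prox1. They were taken by name from a count table of 20914 genes of mouse liver, and all 9 were among the 13725 genes with enough counts to be tested. RNA-seq was done on 6 liver libraries, 3 labelled DOX and 3 labelled PBS. The tested comparison was DOX (S10D-BDL-CKI-Alb-Cre-DOX) against PBS (S10D-BDL-CKI-Alb-Cre-PBS). Every library carries the genotype BucheKI/KI-Hep and the treatment BDL, which in liver work usually means bile duct ligation, so PBS is not an unoperated or wild-type reference. Alb-Cre places Cre under the albumin promoter, which is active in hepatocytes. The labels spell out neither DOX, CKI nor S10D, and they give no age. Nor do they state that each library is a different animal, and p-values therefore measure only the spread between libraries, which may be technical.

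In the adult liver these factors form a network in which each member occupies regulatory regions of others. HNF4A is a nuclear receptor that binds the promoters of many genes expressed in hepatocytes. The FOXA proteins open compacted chromatin so that other factors can bind, and the C/EBP proteins are leucine zipper factors of metabolic and acute phase genes. FXR, encoded by Nr1h4, is the receptor of bile acids, and NR5A2 (LRH-1) acts beside it in bile acid synthesis, which makes both of interest when bile flow is blocked.

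No member passed the test between DOX and PBS, and with TMM scaling the 95% intervals of all 9 lay within a change of 1.5-fold. At an adjusted p under 0.05 (edgeR quasi-likelihood test, Benjamini-Hochberg over all tested genes), 0 of 9 members were called, against 4 of 13725 genes, or 0.0291% (0.0219% higher and 0.00729% lower in DOX). At an unadjusted p under 0.05, again 0 of 9 members passed, where 9.9% of all tested genes did. DESeq2 called 0 of the 9 as well (lowest adjusted p = 0.78), beside 1.19% of its tested genes. The log2 fold changes lay between -0.20 and 0.052, with a median of -0.10, beside -0.015 for all tested genes. Of the 9 values 6 were below 0 and 3 above it, while 53% of all tested genes were below and 47% above. Without DOX replicate 2 the median of the members was -0.048.

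The intervals were narrow. The 95% interval of the DOX to PBS ratio stayed within 1.5-fold in either direction for 9 of 9 members, as it did for 54.2% of all tested genes. Over the members the bounds of that ratio ran between 0.686 and 1.23. The standard errors of their log2 fold changes were 0.082 to 0.16, where the median over all tested genes was 0.16. Members held between 367 and 31361 counts in a library, in libraries of 32826493 to 41102844 counts in total.

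The libraries were checked before the members were compared. Bche, which encodes butyrylcholinesterase and which the study set out to overexpress in hepatocytes, averaged 670.6 ± 268.9 CPM in DOX and 210.6 ± 29.7 CPM in PBS (CPM, counts relative to the library total after TMM scaling, SD, n = 3 each). Its groups did not overlap, and its log2 fold change of 1.67 (SE 0.27) had an adjusted p of 0.11 with edgeR and 2.9e-08 with DESeq2. Defining hepatocyte genes were abundant in each library, Alb alone taking 4.87% to 10.2% of counts. Of 13 matched hepatocyte markers, 6 were positive, and the median log2 fold change was -0.10 (0.059 when PBS replicate 2 was left out, 0.037 when DOX replicate 1 was). Their summed level, most of it Alb, was 95995 to 151272 CPM in DOX and 80269 to 94453 CPM in PBS, which is higher in DOX without overlap. Cholangiocyte markers were lower in DOX by median, at -0.62 with 10 of 10 negative, and their summed level was 139.6 to 270.2 CPM in DOX, against 284.2 to 403.1 CPM in PBS. Endothelial markers had a median of 0.88 with 10 of 10 positive (sums of 139.2 to 259.1 CPM in DOX and 57.4 to 169.1 CPM in PBS). Without PBS replicate 2, which holds the highest cholangiocyte and the lowest endothelial sum, these medians were -0.32 and 0.44, and without DOX replicate 3 the cholangiocyte median was -0.38. In bulk RNA, fewer cells of a type and less RNA per cell cannot be told apart.

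The nuclear receptors come first. Hnf4a (chromosome 2, 163506808 to 163572910 on the plus strand in GRCm38, protein coding) is transcribed from 2 promoters, of which the downstream one is known as the promoter of adult liver. Their first transcribed bases lie 40298 bases apart, and the count table gives a single value for the gene, so the levels below cover transcripts from both. The 250 bases before each start are shown for that reason, from RefSeq (GRCm38.p6, 5′ to 3′ on the plus strand), at chr2:163506607-163506856 and chr2:163546905-163547154. Capitals mark matches to TGTTTNC, a core of FOXA motifs, on either strand.
Hnf4a upstream promoter: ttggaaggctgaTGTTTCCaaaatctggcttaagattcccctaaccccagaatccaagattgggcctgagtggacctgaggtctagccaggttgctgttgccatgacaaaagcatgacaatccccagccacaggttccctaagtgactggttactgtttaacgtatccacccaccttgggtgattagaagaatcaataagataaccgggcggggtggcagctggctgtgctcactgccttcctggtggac
Hnf4a downstream promoter: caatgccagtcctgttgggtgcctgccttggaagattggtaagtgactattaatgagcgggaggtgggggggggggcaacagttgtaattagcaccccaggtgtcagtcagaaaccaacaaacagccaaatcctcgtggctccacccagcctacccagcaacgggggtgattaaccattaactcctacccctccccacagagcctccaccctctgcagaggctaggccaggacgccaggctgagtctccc
The upstream window held 1 FOXA match and the downstream window held none. A stretch of bases just after the downstream start was not found in any GENCODE transcript of Hnf4a, while that after the upstream start was.

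Hnf4a stood at 717.4, 684.1 and 710.0 CPM in the DOX libraries, against 723.9, 804.2 and 735.7 CPM in the PBS libraries. The DOX libraries all lay below the PBS libraries, though the highest DOX and the lowest PBS value nearly met. The log2 fold change was -0.10 (SE 0.11, 95% interval -0.36 to 0.16, edgeR adjusted p = 0.80). PBS replicate 2 was the highest library, and without it the value was -0.052. Hnf4aos, an antisense RNA that overlaps Hnf4a on the opposite strand, held 12, 29 and 103 counts in DOX and 22, 20 and 17 counts in PBS. It was high in DOX replicate 3 alone, and its groups overlapped. The use of strand in counting is not given in the sources used here, so reads of Hnf4a and Hnf4aos cannot be told apart where they overlap.

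Nr1h4 (chromosome 10, 89454234 to 89533585), the bile acid receptor FXR, stood at 99.8, 113.7 and 105.7 CPM in DOX, against 98.6, 99.5 and 110.6 CPM in PBS. The groups overlapped over nearly their whole range. Its log2 fold change of 0.048 did not pass (SE 0.097, 95% interval -0.17 to 0.27, edgeR adjusted p = 0.90). Nr5a2 (chromosome 1, 136842571 to 136960448), the partner receptor LRH-1, stood at 52.1, 49.6 and 48.2 CPM in DOX, against 51.9, 50.4 and 47.5 CPM in PBS. The 2 means, 49.96 ± 1.95 and 49.93 ± 2.20 CPM (SD, n = 3 each), were the closest of any member, with a 95% interval of the ratio of 0.879 to 1.14. Of all tested genes, 1.9% had a smaller standard error than Nr5a2.

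The C/EBP pair followed. Cebpa (chromosome 7, 35119293 to 35121928) keeps hepatocytes quiescent and drives genes of gluconeogenesis and the urea cycle. It stood at 240.8, 238.5 and 266.9 CPM in DOX, against 274.5, 261.7 and 297.9 CPM in PBS. DOX replicate 3 reached above PBS replicate 2, so the groups overlapped. An antisense gene, Gm45091, overlaps its start and was not analysed here. On the log2 scale the difference was -0.16 (SE 0.11, 95% interval -0.41 to 0.087, edgeR adjusted p = 0.65).

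Cebpb (chromosome 2, 167688915 to 167690418), a gene with 1 exon, is induced in inflammation and liver regeneration, and myeloid cells express it too. Tmem189, on the opposite strand, overlaps it and was not analysed here, so reads of that gene cannot be told apart from its own without strand. Cebpb stood at 213.1, 180.8 and 196.6 CPM in DOX, against 199.0, 193.1 and 177.5 CPM in PBS. DOX replicate 1 was the highest library and PBS replicate 3 the lowest, with the other 4 between them in mixed order. This gave a log2 fold change of 0.052 (SE 0.11, 95% interval -0.19 to 0.30, edgeR adjusted p = 0.90). Summed macrophage markers stood at 834.6 to 1096 CPM in DOX and 809.1 to 999.2 CPM in PBS, and summed neutrophil markers at 11.5 to 19.1 CPM in DOX and 14.5 to 28.5 CPM in PBS. The part of these cells in the Cebpb level was not tested.

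Since both C/EBP factors bind the same motif, their ratio was compared within each library, where scaling matters little. The log2 of Cebpb over Cebpa, from log2(CPM + 1), was -0.18, -0.40 and -0.44 in DOX, against -0.46, -0.44 and -0.74 in PBS. DOX replicate 1 and PBS replicate 3 lay at the ends, and DOX replicate 3 fell just below PBS replicate 2, so the groups overlapped. The difference, DOX minus PBS, was 0.21 (-0.34 ± 0.14 in DOX and -0.55 ± 0.17 in PBS, SD, n = 3 each), with an exact two-sided permutation p of 0.2, where 0.1 is the smallest that this design allows. Without DOX replicate 1 the difference was 0.13, and without PBS replicate 3 it was 0.11.

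The 3 FOXA genes encode forkhead proteins with nearly the same DNA binding domain. Foxa1 (chromosome 12, 57540628 to 57546916), the least abundant member, stood at 15.5, 10.8 and 13.5 CPM in DOX, against 16.2, 12.9 and 16.1 CPM in PBS. Replicate 2 was the lowest library of each group, and the groups overlapped. Its log2 fold change was -0.18 (SE 0.16, 95% interval -0.54 to 0.18, edgeR adjusted p = 0.73), the widest interval among the members. Without DOX replicate 2 it was -0.048, and without DOX replicate 1 it was -0.30. Its promoter is shown because it carries a match to the motif of its own family, between 141 and 135 bases before the start, in the window chr12:57546112-57546361 (RefSeq, GRCm38.p6, 5′ to 3′ on the minus strand, capitals as above).
Foxa1 promoter: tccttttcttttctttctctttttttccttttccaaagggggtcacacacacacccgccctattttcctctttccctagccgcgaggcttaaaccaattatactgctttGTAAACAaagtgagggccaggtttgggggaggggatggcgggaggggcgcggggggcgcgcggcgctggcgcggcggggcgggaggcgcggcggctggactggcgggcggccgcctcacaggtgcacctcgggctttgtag

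Foxa2 (chromosome 2, 148042877 to 148046969), which together with Foxa1 holds back bile duct growth in mice, stood at 26.6, 26.2 and 26.7 CPM in DOX, against 28.3, 27.8 and 35.2 CPM in PBS. The DOX libraries were nearly equal and all lay below the PBS libraries, of which replicate 3 stood apart. The log2 fold change was -0.20 (SE 0.11, 95% interval -0.45 to 0.045), the lowest p of the members, and it did not pass (unadjusted p = 0.096, edgeR adjusted p = 0.57). Without PBS replicate 3 the value was -0.084. Summed cholangiocyte markers were also lower in DOX without overlap, as given above, and their part in the Foxa2 level was not tested. Foxa3 (chromosome 7, 19013284 to 19023538), the FOXA gene of highest level in this tissue, stood at 77.2, 64.3 and 71.4 CPM in DOX, against 81.8, 73.8 and 72.8 CPM in PBS. The highest library was PBS replicate 1 and the lowest DOX replicate 2, with overlap between the groups. Foxa3 had a log2 fold change of -0.10 (SE 0.10, 95% interval -0.33 to 0.13, edgeR adjusted p = 0.76).

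Prox1 (chromosome 1, 190118035 to 190170714) encodes a homeobox protein that represses genes together with HNF4A and NR5A2 in hepatocytes, and it also marks lymphatic endothelium. It stood at 127.6, 118.0 and 109.1 CPM in DOX, against 154.7, 115.7 and 133.1 CPM in PBS. PBS replicate 1 was well above the rest, while PBS replicate 2 lay inside the DOX range. The log2 fold change was -0.19 (SE 0.13, 95% interval -0.48 to 0.10, edgeR adjusted p = 0.65), and -0.074 without PBS replicate 1. Endothelial markers had a median of 0.88, and 0.44 without PBS replicate 2, and the part of endothelial cells in the Prox1 level was not tested. Prox1os, which overlaps Prox1 on the opposite strand, held 121, 159 and 233 counts in DOX and 175, 237 and 150 counts in PBS, and its groups overlapped.

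**Figure D1:**
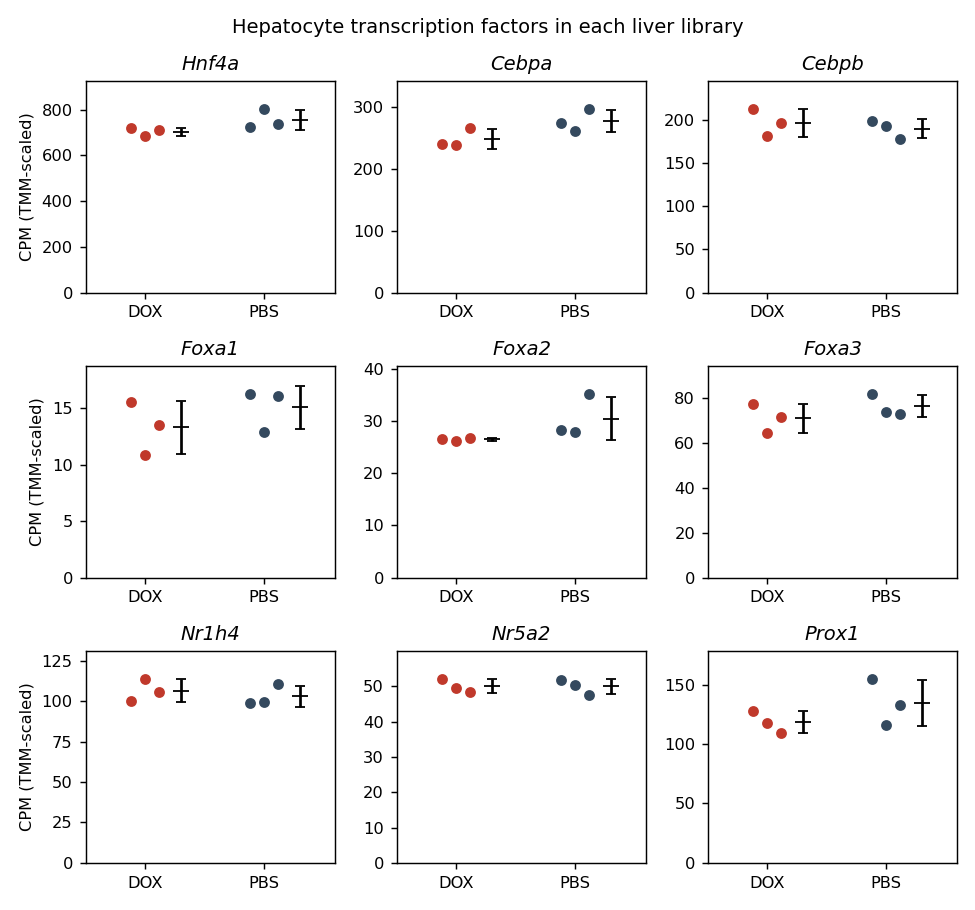
TMM-scaled CPM (vertical axes, from 0) of the 9 factors in the 3 DOX libraries (red, left) and the 3 PBS libraries (dark, right), replicates 1 to 3 from left to right in each group, with the mean and SD as a black bar. The groups overlap in 7 panels, and in Hnf4a and Foxa2 the DOX libraries lie just below the PBS libraries.

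The groups thus did not overlap for 2 of 9 members, Hnf4a and Foxa2, both lower in DOX. Among all tested genes, 9.02% were lower and 7.84% higher in DOX without overlap. This count depended on the scaling. With library size in place of TMM, 5 of 9 members (Hnf4a, Cebpa, Foxa2, Foxa3 and Nr5a2) were lower in DOX without overlap, beside 19.6% of all tested genes that were lower and 2.56% that were higher. The median log2 fold change of all tested genes was then -0.15. The signs of Cebpb, Nr1h4 and Nr5a2 turned negative under that scaling, and relative to the median they were 0.067, 0.065 and 0.018. The other 6 members lay between -0.19 and -0.084 relative to it. The 95% intervals of Foxa1, Foxa2 and Prox1 then passed 1.5-fold on the lower side, with bounds of -0.70, -0.62 and -0.66 on the log2 scale. On that scale 2 members, Cebpa and Foxa2, had an unadjusted p under 0.05, both lower in DOX, where 12.4% of all tested genes were lower and 1.82% higher at that p. After adjustment 0 of 9 passed (edgeR, lowest adjusted p = 0.31). With TMM, the summed level of the 9 members was 1486 to 1570 CPM in DOX and 1627 to 1639 CPM in PBS. This sum, to which Hnf4a contributes most, was lower in DOX without overlap.

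**Figure D2:**
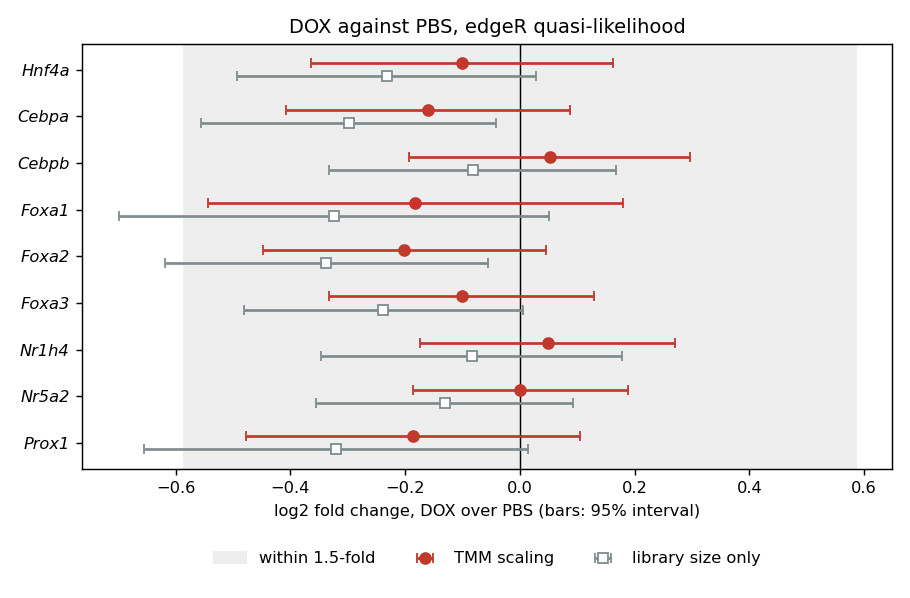
Log2 fold changes of DOX over PBS (horizontal axis) with 95% intervals for the 9 factors, with TMM scaling (red circles) and with library size only (open squares). With TMM every interval spans 0 and stays inside the grey band of 1.5-fold in either direction. With library size only, all 9 values shift to the left.

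Levels can be compared between genes per length, for which the deposited FPKM values (fragments per kilobase, scaled to the library total) were used. Over all 6 libraries, Hnf4a averaged 155.3 FPKM and was the highest member in each of the 6. It was followed by Cebpb at 127.3, Cebpa at 100.3, Nr1h4 at 40.8 and Foxa3 at 36.2 FPKM. Prox1 at 14.8, Foxa2 at 12.1, Nr5a2 at 9.86 and Foxa1 at 2.77 FPKM completed the order, which spans 56.1-fold. Among the 13725 tested genes Hnf4a ranked 412 and Foxa1 ranked 7325 by mean FPKM.

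The order of the 9 was the same in 5 of the 6 libraries. In PBS replicate 1, Foxa3 with 42.8 FPKM exceeded Nr1h4 with 41.0 FPKM. The ranges over the 6 libraries overlapped between Hnf4a and Cebpb, Cebpb and Cebpa, Nr1h4 and Foxa3, Prox1 and Foxa2, and Foxa2 and Nr5a2. They did not overlap between Cebpa and Nr1h4, Foxa3 and Prox1, or Nr5a2 and Foxa1. Cebpb was above Cebpa per length in 6 of 6 libraries, although its counts were lower. FPKM values are scaled by the library total, so they place Hnf4a at 136.0 to 146.5 FPKM in DOX and 164.3 to 172.1 FPKM in PBS.

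**Figure D3:**
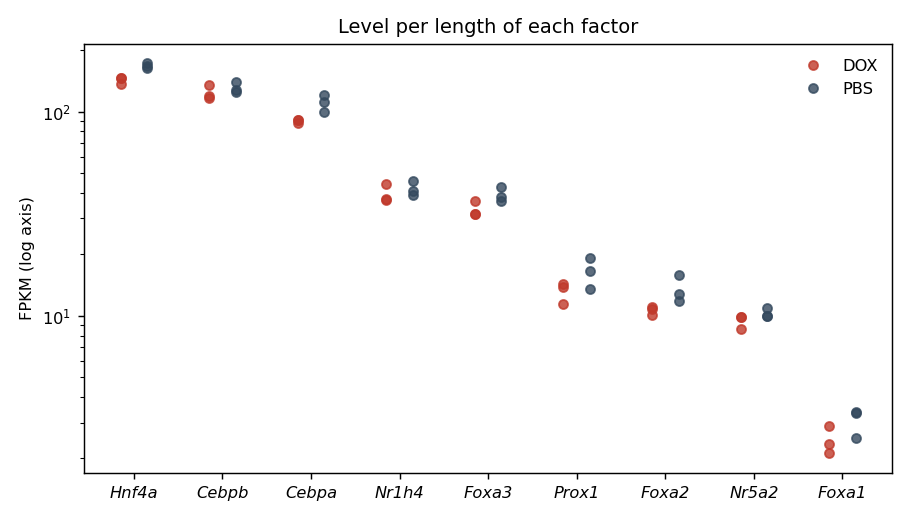
FPKM on a log axis for each factor, ordered by its mean over the 6 libraries, with DOX libraries in red to the left and PBS libraries in dark to the right. Hnf4a, Cebpb and Cebpa lie at 87.8 to 172.1 FPKM, and Foxa1 lies at 2.12 to 3.37 FPKM.

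Short sequence motifs of the factors were searched on both strands in the 250 bases before 14 annotated starts of the 9 genes. The FOXA core TGTTTNC was found in 3 of the 14 windows, 1 each of Hnf4a, Foxa1 and Prox1, and 17.8% of 32851 mouse promoters of that length hold it. The C/EBP motif TTNNGCAA was found in 1 of the 14 windows, of Nr5a2, and 9.56% of all promoters hold it. An HNF4 motif, CAAAGNCCA, and an NR5A2 motif, CAAGGTCA, were in 0 of the 14 windows and in 1.7% and 1.33% of all promoters. These are matches of letters only. For the downstream Hnf4a window and both Prox1 windows, bases just after the start were not found in a GENCODE transcript of the gene.

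Genes whose profile over the 6 libraries was most like a member were sought among 7744 genes of at least 10 CPM, by the mean absolute difference of centred log2(CPM + 1). Nearest to Hnf4a were Ddx19b, an RNA helicase, Cnot11, of the CCR4-NOT deadenylase, and Tm4sf4, a tetraspan membrane protein, with differences of 0.016, 0.016 and 0.018. Nearest to Foxa2 were Surf6, Pacsin2 and Camk2n1, with differences of 0.027, 0.027 and 0.028. Hnf4a itself deviated by 0.052 from its mean on this scale and Foxa2 by 0.10.

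Around the 9 genes, 31 other liver transcription factors were tested, and 0 were called (edgeR). Of these, 14 had a positive and 17 a negative log2 fold change, with a median of -0.046, beside -0.015 for all genes and -0.015 for the list itself without DOX replicate 3. At an unadjusted p under 0.05 there were 3 higher and 3 lower, where 9.9% of all tested genes passed in either direction. Onecut1, which encodes a cut homeobox factor of hepatocytes and bile ducts, averaged 5.29 ± 1.43 CPM in DOX and 11.4 ± 1.11 CPM in PBS (SD, n = 3 each). Its log2 fold change of -1.11 (SE 0.21) had an adjusted p of 0.18 with edgeR, and it passed with DESeq2 (adjusted p = 0.00037) and also in edgeR when low genes were kept (adjusted p = 0.027). Nr1i2, the xenobiotic receptor PXR, averaged 77.6 ± 7.75 CPM in DOX and 61.9 ± 0.718 CPM in PBS (log2 fold change 0.32, edgeR adjusted p = 0.39). Stat5b, which relays growth hormone signals, had a log2 fold change of 0.25, and Esrra, an orphan receptor of mitochondrial genes, of -0.50. Neither passed (edgeR adjusted p = 0.44 and 0.46).

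Of 18 coregulators, 0 were called by edgeR or DESeq2, 13 had a negative value and the median was -0.063 (-0.11 without PBS replicate 3). The 3 with an unadjusted p under 0.05 were all lower in DOX, where 9.9% of all tested genes passed in either direction. Trib1, a pseudokinase that directs C/EBP alpha to degradation, averaged 37.0 ± 6.73 CPM in DOX and 47.8 ± 3.47 CPM in PBS (log2 fold change -0.37, edgeR adjusted p = 0.44). Arid1a, a chromatin remodelling subunit, had a log2 fold change of -0.19 and Med1, a Mediator subunit, of -0.26 (edgeR adjusted p = 0.50 for each).

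Genes listed as targets of the factors were then set beside them. They were taken from lists that share many genes, so their counts are not independent. Their medians moved with the scaling: with library size only, where the median of all genes was -0.15, they were 0.17 for HNF4A, 0.064 for FXR, 0.12 for NR5A2, 0.098 for FOXA and -0.21 for C/EBP targets. On log2(FPKM + 1) those of HNF4A, FXR and FOXA targets were 0.15, 0.054 and 0.078. As background to the counts below, edgeR called 0.0291% of all tested genes and DESeq2 called 1.19% of its own. At an unadjusted p under 0.05 (edgeR), 9.9% passed in either direction, and 47% of all tested genes were above 0. Of 22 listed HNF4A targets, 0 were called by edgeR and 2 by DESeq2, and 19 had a value above 0 (median 0.31). Those above 0 include Hnf4aos (log2 fold change 1.34), the antisense RNA described above, which was high in DOX replicate 3 alone. At an unadjusted p under 0.05 there were 7 higher and 1 lower. Apom, the apolipoprotein of sphingosine phosphate transport, averaged 167.0 ± 20.3 CPM in DOX and 107.3 ± 13.0 CPM in PBS, a log2 fold change of 0.64 (SE 0.13) that passed with DESeq2 (adjusted p = 0.0032) and not with edgeR (adjusted p = 0.22). Apoa4, an apolipoprotein of lipid transport, had a log2 fold change of 1.77 (SE 0.47) with overlapping groups (edgeR adjusted p = 0.35). Without DOX replicate 3 the median of the list was 0.16.

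Of 21 FXR targets, 0 were called by edgeR, 18 had a positive value and the median was 0.21. The list was not split into genes that FXR raises and genes that it lowers, so this count does not measure FXR activity. Fgfr4, the receptor through which intestinal FGF lowers bile acid synthesis, averaged 35.9 ± 1.82 CPM in DOX and 48.0 ± 1.36 CPM in PBS, a log2 fold change of -0.42 (SE 0.081). It was the only member of that list called by DESeq2 (adjusted p = 0.025, edgeR adjusted p = 0.20). Abcb11, the bile salt export pump, averaged 459.8 ± 56.0 CPM in DOX and 322.1 ± 89.8 CPM in PBS (log2 fold change 0.51, edgeR adjusted p = 0.48). Pltp, a phospholipid transfer protein, had a log2 fold change of 0.34, and Abcb4, the phospholipid exporter of bile, of 0.23 (edgeR adjusted p = 0.48 and 0.51). Without PBS replicate 2 the median of the list was 0.052.

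Of 14 NR5A2 targets, which include Hnf4a itself, 0 were called by edgeR and 1, Apom, by DESeq2. There, 10 had a positive value, with a median of 0.27, which was 0.0017 without DOX replicate 3 and 0.44 without DOX replicate 2. Lpcat3, a phospholipid acyltransferase, averaged 112.4 ± 9.06 CPM in DOX and 83.3 ± 14.5 CPM in PBS (log2 fold change 0.43, edgeR adjusted p = 0.40), and Abcg8, of the sterol exporter, had a log2 fold change of 0.94 (edgeR adjusted p = 0.40). Of 17 FOXA targets, 0 were called by edgeR and 2, Alb and Slc10a1, by DESeq2, and 12 had a positive value (median 0.23). Slc10a1, the bile acid uptake transporter, averaged 367.5 ± 124.0 CPM in DOX and 215.2 ± 18.8 CPM in PBS (edgeR adjusted p = 0.37, DESeq2 adjusted p = 0.037). Ttr, the transthyretin gene, had a log2 fold change of 0.38 (edgeR adjusted p = 0.47).

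C/EBP targets were mixed. Of 22, 9 were positive and 13 negative, 0 were called by edgeR and 1, Alb, by DESeq2, and 3 had an unadjusted p under 0.05. The median was -0.081, with a range of -0.17 (without PBS replicate 3) to 0.023 (without PBS replicate 2) as libraries were left out in turn. Alb averaged 93059 ± 28397 CPM in DOX and 51894 ± 6066 CPM in PBS (log2 fold change 0.84, edgeR adjusted p = 0.46, DESeq2 adjusted p = 0.018). Fgf21, a hormone released by the stressed or fasted liver, averaged 2.29 ± 0.870 CPM in DOX and 0.909 ± 0.417 CPM in PBS (edgeR adjusted p = 0.42). Saa1, an acute phase protein, had a log2 fold change of -0.87 (edgeR adjusted p = 0.55).

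Genes listed as transcription factors of the biliary lineage were mostly lower in DOX. The medians of the 9 members (-0.10) and of the C/EBP targets (-0.081) were also below 0. Of 18 genes, 17 were below 0, and the median log2 fold change was -0.53. In this list 0 genes were called by edgeR, 1 (Onecut1) by DESeq2 and 6 at an unadjusted p under 0.05, all lower in DOX. Over all tested genes, DESeq2 called 1.19% and 9.9% had an unadjusted p under 0.05 (edgeR), in either direction, while 53% were below 0. The summed level of the list was 297.0 to 386.4 CPM in DOX and 408.5 to 483.2 CPM in PBS. Id3, an inhibitor of helix-loop-helix factors, ranged over 56.9 to 82.5 CPM in DOX and 87.8 to 177.3 CPM in PBS (log2 fold change -0.81, edgeR adjusted p = 0.40). Glis3, a zinc finger factor, and Nfib, of the nuclear factor I family, had log2 fold changes of -0.75 and -0.20 (edgeR adjusted p = 0.47 and 0.48). The median was -0.26 when DOX replicate 3 was left out and -0.34 when PBS replicate 2 was. Summed cholangiocyte markers, which share genes such as Sox9 with this list, were lower in DOX as well, and their part in these values was not tested.

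**Figure D4:**
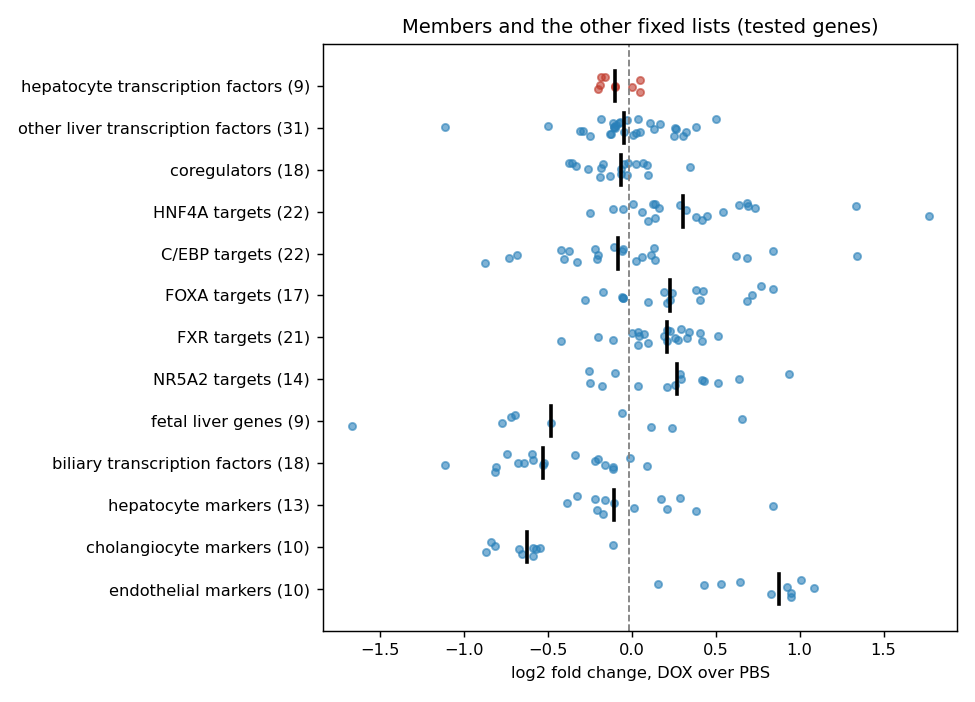
Log2 fold changes of DOX over PBS (horizontal axis) of the tested genes of each list, the 9 factors in red and other lists in blue, with the number tested in brackets, the list's median as a black bar and the median of all tested genes as a dashed line. The 9 factors lie between -0.20 and 0.052, while target genes spread more widely to either side and 17 of 18 biliary factors lie below 0.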

How the data were processed

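RNA from mouse liver was extracted with a column kit and made into libraries with a SMARTER mRNA-Seq kit, per the labels' protocols. Builds named in the submitters' processing notes are GRCm38 and mm10. The aligner, the counter and whether strand was used: not given in the sources used here. Per gene, the authors deposited whole-number read counts and FPKM values. The deposited FPKM could be rebuilt from the counts, 1 length for each gene and the library total in 18913 of 18913 genes counted in 2 or more libraries (to within 1e-05).

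Counts were tested for DOX against PBS over all 6 libraries with edgeR 4.0.16 (R 4.3.3), with filterByExpr, TMM scaling and the quasi-likelihood test, without a block. Adjusted p-values are Benjamini-Hochberg over all tested genes, with a threshold of 0.05. Standard errors come from the F statistic. The procedure was tested on simulated data. The ratio of the C/EBP genes was tested by exact permutation. Alternatives were DESeq2 1.42.0, limma 3.58.1 (voom, and log2 of FPKM plus 1 or 0.1), other scalings and filters, Alb left out, the replicate block and leaving out each library.

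The members and the 19 other gene lists were chosen with earlier results of these data known. Of 283 list entries, 24 were not matched. These include all mitochondrial transcripts listed, so that no check of RNA quality was made from them. Lymphocyte and pancreas markers had summed levels of 1.70 to 5.17 and 6.01 to 7.53 CPM in DOX, and 1.78 to 3.32 and 4.93 to 6.21 CPM in PBS. Stellate cell markers had 213.6 to 461.6 CPM in DOX and 219.9 to 412.5 CPM in PBS. Beside the members, the text names Bche, the antisense partners of members, the 3 nearest genes of Hnf4a and of the member of lowest p, and up to 4 genes of lowest p in each list described. Some genes that this rule names are not reported here. Gene positions are from GENCODE M21 (GRCm38), and promoters from RefSeq (9 of 9 members matched).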

Additional observations from a re-analysis of the deposited data

How the results depend on the processing

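In all 16 alternatives 0 of the 9 factors were called (lowest adjusted p = 0.28, limma on log2(FPKM + 1)). Hnf4a, Cebpa, Foxa1, Foxa2, Foxa3 and Prox1 kept a negative log2 fold change in each of the 16, between -0.34 and -0.026. Cebpb, Nr1h4 and Nr5a2 turned negative when scaled by library size only (-0.082, -0.084 and -0.13), which moves the median of all genes to -0.15. They did so too on log2(FPKM + 1) (-0.082, -0.083 and -0.12) and on log2(FPKM + 0.1) (-0.083, -0.085 and -0.13), which carry that scaling by construction. Nr5a2 was -0.0035 with a minimum of 1 CPM in 3 libraries. When 1 library was left out, Cebpb ranged from -0.00084 to 0.12 and Nr5a2 from -0.033 to 0.029. The C/EBP ratio ranged from 0.11 to 0.27.

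Over all genes, DESeq2 called 176 (128 higher, 48 lower), 8 of them in the other lists. No filter gave 61 (45 higher, 16 lower), 1 of them in those lists. Limma-voom gave 2 (1 higher), log2(FPKM + 0.1) gave 2 (0 lower), and library size only gave 5 (3 higher, 2 lower). With any single library left out, 3 to 4 genes were called, 3 to 4 higher and 0 to 1 lower. Why these counts differ, the cause was not tested.

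With the replicate block 21 genes were called (17 higher, 4 lower), and the log2 fold changes of the 9 factors were -0.19 to 0.050 (lowest adjusted p = 0.50). Deviations of same-numbered libraries correlated at 0.19, 0.13 and 0.0097, and PBS replicate 3 correlated best with DOX replicate 1 (0.052). The labels give the numbers no meaning, and they were not used as pairs. With 3 libraries per group, changes of the members smaller than their intervals were not detectable.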

Other observations

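Genes listed as fetal liver genes were low in both groups, and the part of other cell types in their level was not tested. Of 12 listed, 9 were tested, and their summed level was 46.6 to 63.0 CPM in DOX and 57.4 to 69.3 CPM in PBS. Of the 9, 6 were below 0, and the median log2 fold change was -0.48 (-0.25 without DOX replicate 3, -0.24 without PBS replicate 2 and -0.86 without PBS replicate 3). Among them 0 were called by edgeR, 1 by DESeq2 and 2 at an unadjusted p under 0.05. Over all tested genes, DESeq2 called 1.19% and 9.9% had an unadjusted p under 0.05 (edgeR), in either direction. Spink1, a trypsin inhibitor, ranged over 1.11 to 2.59 CPM in DOX and 3.21 to 10.1 CPM in PBS, a log2 fold change of -1.67 (SE 0.45, edgeR adjusted p = 0.36, DESeq2 adjusted p = 0.014). Aldoa, Peg3 and H19 had log2 fold changes of -0.77, -0.69 and -0.72 (edgeR adjusted p = 0.50 to 0.58). Afp, the alpha-fetoprotein gene, had a log2 fold change of 0.24.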
